A study of Mus musculus with 6 samples.

Results

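The genes described here are 43 members of the TGF-beta, activin and BMP signalling pathway: ligands, binding proteins, receptors, SMAD proteins, SMAD inhibitors and target genes. They were chosen by symbol from a list of the pathway, and all 43 were found among the 16289 genes of the deposited count table. Each of them passed the filter on low counts that left 16259 genes for testing. The data were RNA-seq libraries of tibialis anterior, a fast hindlimb muscle, from 12-week-old male wildtype C57BL/6J mice. Glycerol had been injected into the muscle of every mouse, which kills fibres and leaves a regenerating muscle in which fat cells can form, and muscles were taken on day 14. A glycerol+melatonin group of 3 mice received melatonin, the pineal hormone, and a glycerol group of 3 mice received a control treatment. How much melatonin was given, by which route and when, and what the control treatment was, stands in none of the sources used here, and no uninjured muscle was analysed here. The tissue label is tibialis anterior, but the text on RNA extraction speaks of longissimus dorsi, a muscle of the back. Fibre genes dominated every library: the 10 fibre markers listed for the check, led by Acta1, Ckm and Tnnt3, summed to 128400, 104200 and 84520 CPM (counts per 1000000 of the scaled library total) in glycerol+melatonin muscles, against 131300, 144200 and 117300 CPM in glycerol muscles. The libraries held between 39310361 and 48879045 counts.

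In this pathway a ligand dimer brings type II and type I receptor kinases together, and the type I receptor phosphorylates SMAD proteins that bind SMAD4 and enter the nucleus. TGF-beta and activin ligands act mainly through SMAD2 and SMAD3, and BMP ligands mainly through SMAD1, SMAD5 and SMAD9. In muscle, TGF-beta is known for driving fibrosis, myostatin and activins for limiting muscle mass, and BMP signalling for sustaining it and for expanding muscle progenitors. The Id genes, which encode inhibitors of DNA binding that hold back differentiation factors such as MYOD, are the best known immediate BMP targets.

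The comparison of glycerol+melatonin with glycerol asks what melatonin was associated with on day 14 of regeneration. A pair of BMP target genes, Id1 and Id3, was higher in every glycerol+melatonin library than in any glycerol library, by 2.49-fold and 1.75-fold. Several receptors stood lower in every glycerol+melatonin library, among them the activin receptor gene Acvr1b, narrowly, and the BMP receptor genes Bmpr1a and Bmpr2. Of all genes, 13.6% were higher and 12.5% lower without overlap between the groups. Messages for the TGF-beta ligands Tgfb1 and Tgfb3 and for most SMAD proteins lay at similar mean levels in the groups, within the spread of the libraries. No member passed the threshold over all genes, a Benjamini-Hochberg adjusted p under 0.05 in the quasi-likelihood test of edgeR, which 12 of 16259 genes (0.0738%) passed in either direction. By limma-voom 0 members passed as well, with 0.0738% of genes called. DESeq2 called 4 members: Id1 and Id3 as higher, where it called 2.25% of genes, and Tgfbr3 and Acvr1b as lower, where it called 2.88%.

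Without adjustment, 10 of 43 members (23.3%) had p under 0.05 in edgeR, against 19.5% of all genes tested. By direction, 3 members (6.98%) were higher with glycerol+melatonin, against 10.1% of all genes, and 7 members (16.3%) were lower, against 9.39%. The number of lower members was smaller with other settings: 2 members were lower at that p when libraries were scaled by their totals alone, 4 after a correction for transcript length, and 3 without glycerol replicate 1. The groups did not overlap for 11 members: 3 were higher in all glycerol+melatonin libraries, against 13.6% of all genes in that direction, and 8 were lower in all of them, against 12.5%. The fitted log2 fold change, glycerol+melatonin over glycerol, lay above 0 for 14 members and below 0 for 29, with a median of -0.12, beside a median of 0.02 over all genes. Scaling by library totals alone moved the median of all genes to 0.23 and that of the members to 0.09, with 27 members above 0 and 16 below, so directions below are relative to the median gene.

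**Figure D1:**
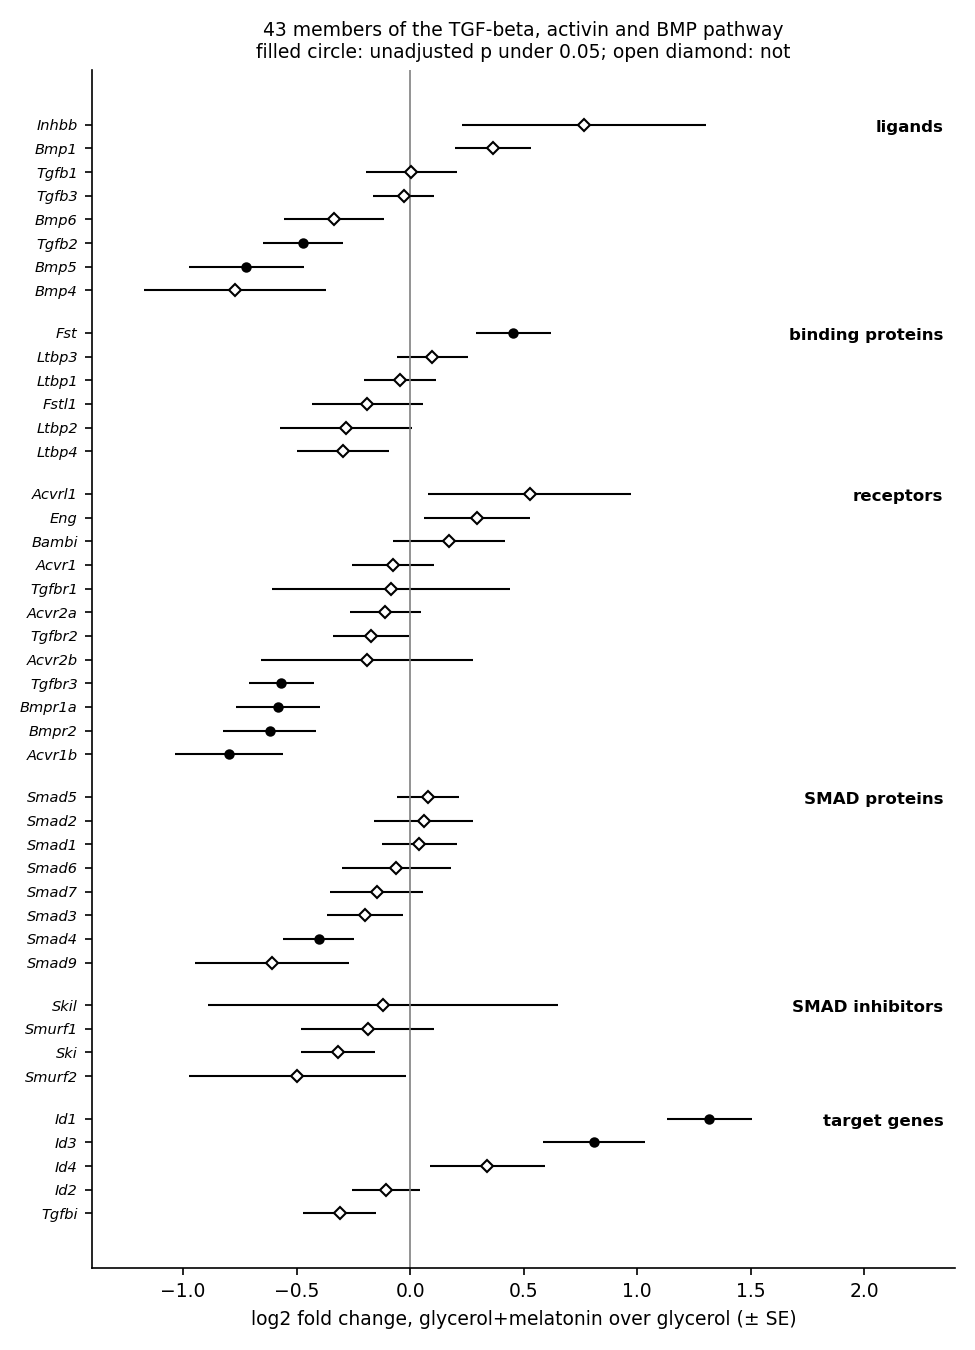
Log2 fold change, glycerol+melatonin over glycerol, with its standard error on the horizontal axis, for the 43 members grouped by role down the page (3 libraries per group). Filled circles are the 10 members with unadjusted p under 0.05 in edgeR: Id1 and Id3 stand farthest to the right, and 4 receptor genes lie between -0.80 and -0.57.

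Id1 had the largest fold change among the members, and its relatives differed from it and from each other. Id1 (ENSMUSG00000042745, GRCm38 chromosome 2, 152736251 to 152737410, plus strand) had 38.9, 50.99 and 56.4 CPM in glycerol+melatonin muscles, against 17.2, 18.9 and 22.6 CPM in glycerol muscles. Each glycerol+melatonin library therefore held more Id1 than each glycerol library, and the nearest libraries of the groups lay at 38.9 and 22.6 CPM. Id1 averaged 48.8 ± 9.0 CPM with glycerol+melatonin and 19.6 ± 2.78 CPM with glycerol (SD, n = 3 each), a log2 fold change of 1.32 ± 0.19 (SE; edgeR unadjusted p = 8.92e-05, adjusted p = 0.0653). The adjusted p was 1.96e-06 in DESeq2 and 0.0798 in limma-voom, and over all 15 alternative settings it ranged between 1.96e-06 and 0.224. Among the 6 fits that left out a library, only the one without glycerol+melatonin replicate 1 called Id1 in edgeR, with a log2 fold change of 1.46 and an adjusted p of 0.041.

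Id3 (ENSMUSG00000007872, GRCm38 chromosome 4, 136143497 to 136145755, plus strand), a close relative of Id1 that is induced by BMP in many cell types, had 54.7, 89.98 and 79.4 CPM in glycerol+melatonin muscles, against 37.5, 38.1 and 52.2 CPM in glycerol muscles. The groups did not overlap, though the lowest glycerol+melatonin library and the highest glycerol library were 54.7 and 52.2 CPM. The log2 fold change was 0.81 ± 0.22 (edgeR adjusted p = 0.156, DESeq2 adjusted p = 0.0338, with a range of 0.0338 to 0.451 over the alternative settings). Id2, which is also expressed in fat and immune cells, had 12.04, 11.6 and 10.9 CPM with glycerol+melatonin and 13.1, 12.1 and 12.0 CPM with glycerol. The Id2 libraries overlapped only through the value of glycerol+melatonin replicate 1, and the log2 fold change was -0.11 ± 0.15 (edgeR adjusted p = 0.72). Id4 had 3.75, 3.8 and 3.15 CPM with glycerol+melatonin and 3.24, 3.25 and 1.96 CPM with glycerol, and its groups overlapped (log2 fold change 0.34 ± 0.25, edgeR adjusted p = 0.474).

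The ratio of Id1 to Id2 within a library, which is free of the scaling between libraries, was 3.23, 4.38 and 5.16 with glycerol+melatonin, against 1.31, 1.55 and 1.88 with glycerol. The ratio of Id3 to Id2 was 4.54, 7.73 and 7.26 with glycerol+melatonin, against 2.86, 3.14 and 4.35 with glycerol. For both ratios the groups did not overlap (exact two-sided permutation test, p = 0.1, the smallest p that 3 against 3 libraries allow). These ratios were chosen after the values had been seen, so this p adds no support beyond the values of Id1 and Id3 themselves. Per kilobase of the longest transcript, Id3 was the most abundant Id gene at 58.5 CPM per kilobase with glycerol+melatonin and 33.3 with glycerol. Id1 followed at 42.0 and 16.9 CPM per kilobase in the same groups, Id2 at 5.86 and 6.31, and Id4 at 0.926 and 0.731.

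**Figure D2:**
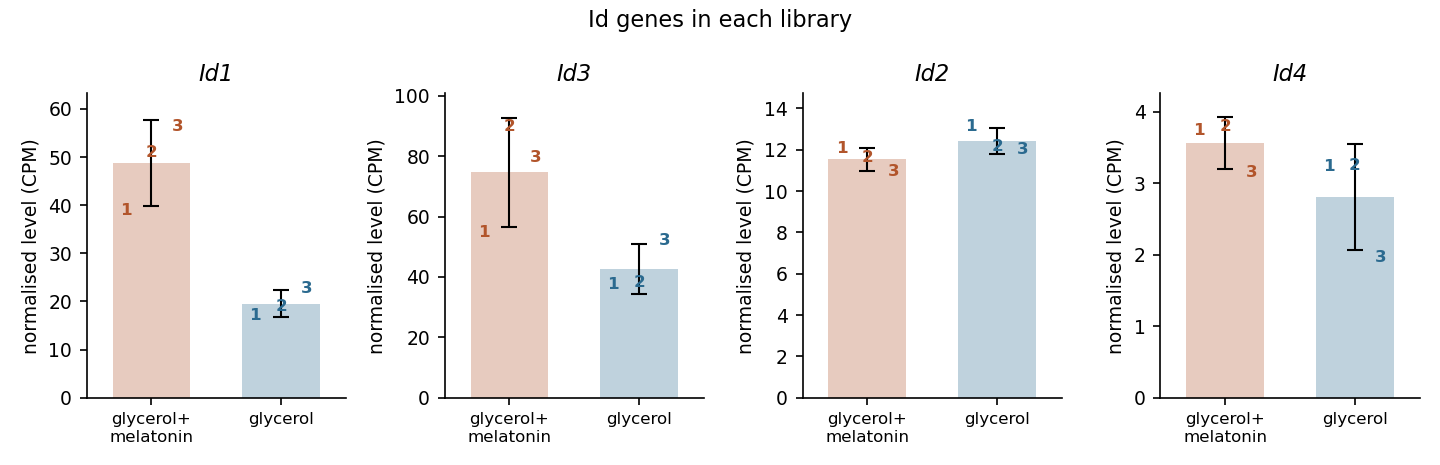
Normalised level (CPM) of Id1, Id3, Id2 and Id4 in glycerol+melatonin muscles, left, and glycerol muscles, right. Bars are means, error bars the SD of 3 libraries, and digits mark the value of each replicate. For Id1 and Id3 every glycerol+melatonin digit lies above every glycerol digit, and for Id2 and Id4 the groups overlap.

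Of the Id genes that matched the promoter table, Id3 and Id2 are shown, a gene that was higher with glycerol+melatonin in every library and a relative that was not. Id1 was not matched. Each window runs 250 bases before to 50 bases after the start that RefSeq's table on GRCm38.p6 uses for the gene, written 5′ to 3′ on the gene's strand. That start need not be the outermost one of the GENCODE gene: the windows of Id3 and Id2, and those of Bmpr1a and Bmpr2 printed later, lie inside the GENCODE span. Capitals mark the SMAD motifs searched: GGCGCC, bound by BMP SMADs, and CAGAC with its reverse complement GTCTG, which holds the SMAD3 and SMAD4 core. The Id3 window is chr4:136143572-136143871 (plus strand) and the Id2 window is chr12:25096043-25096342 (minus strand).
Id3: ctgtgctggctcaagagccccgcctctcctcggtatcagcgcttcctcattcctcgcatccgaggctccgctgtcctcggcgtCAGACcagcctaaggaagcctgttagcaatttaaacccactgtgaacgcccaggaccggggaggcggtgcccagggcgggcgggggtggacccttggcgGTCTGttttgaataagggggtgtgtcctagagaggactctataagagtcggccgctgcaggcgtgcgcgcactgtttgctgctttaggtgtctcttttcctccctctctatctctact
Id2: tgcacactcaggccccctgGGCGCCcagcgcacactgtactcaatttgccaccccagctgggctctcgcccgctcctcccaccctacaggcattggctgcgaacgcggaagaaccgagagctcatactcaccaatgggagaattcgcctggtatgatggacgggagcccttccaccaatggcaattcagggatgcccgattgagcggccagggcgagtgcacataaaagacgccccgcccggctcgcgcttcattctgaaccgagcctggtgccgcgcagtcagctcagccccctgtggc
The Id3 window held CAGAC at base 84 and GTCTG at base 183 and no GGCGCC, and the Id2 window held GGCGCC at base 20 and neither CAGAC nor GTCTG. Of the 32 members whose promoter was matched by symbol, 12 (37.5%) held GGCGCC, against 11.9% of 32544 mouse promoters. These members' promoters were also richer in G and C, with a median of 66.5% against 53.0% for all promoters. CAGAC or GTCTG occurred in 16 of the 32 (50%), against 49.5% of all promoters. A member was counted if any of its windows held the motif, and Ltbp1, Ltbp4, Smad5 and Tgfbr1 had several windows. The share of all promoters counts each promoter alone, so the member shares are somewhat favoured. A match describes the letters of the window and is not evidence of binding.

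Over all genes the fold change varied with transcript length, and ribosomal protein and immediate-early genes differed between the groups alongside Id1 and Id3. Id1 and Id3 are the only members in the shortest of 4 equal bins of genes by transcript length, with longest transcripts of 1160 and 1278 bases. Over all genes of that bin (57 to 1915 bases) the median log2 fold change was 0.25, and over the longest bin (4590 to 123179 bases), which holds 21 members, it was -0.13. The 21 long members had a median of -0.19. After a correction for length the log2 fold change was 1.09 for Id1 and 0.60 for Id3. The 8 listed cytosolic ribosomal protein genes were taken as a proxy of RNA quality, of which no direct measure was used here. All 8 were higher with glycerol+melatonin at unadjusted p under 0.05, against 10.1% of all genes. Their longest transcripts lie in the shortest bin, except that of Rpl35a at 2858 bases. Their sums were 1107, 1267 and 1207 CPM with glycerol+melatonin, against 541.7, 572.7 and 843.7 CPM with glycerol, and their median log2 fold change was 0.90. The 14 immediate-early genes, which respond within minutes to stimuli and to tissue handling, had a median log2 fold change of 0.79. At unadjusted p under 0.05, 9 (64.3%) were higher with glycerol+melatonin, against 10.1% of all genes, and 0 were lower, against 9.39%. The immediate-early sums were 850.3, 898.6 and 961.8 CPM with glycerol+melatonin, against 528.3, 573.6 and 519.1 CPM with glycerol. The ribosomal protein and immediate-early lists were chosen with earlier results of these data known, so their shares are a description only. The part of these genes in the Id1 and Id3 differences was not tested.

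**Figure D3:**
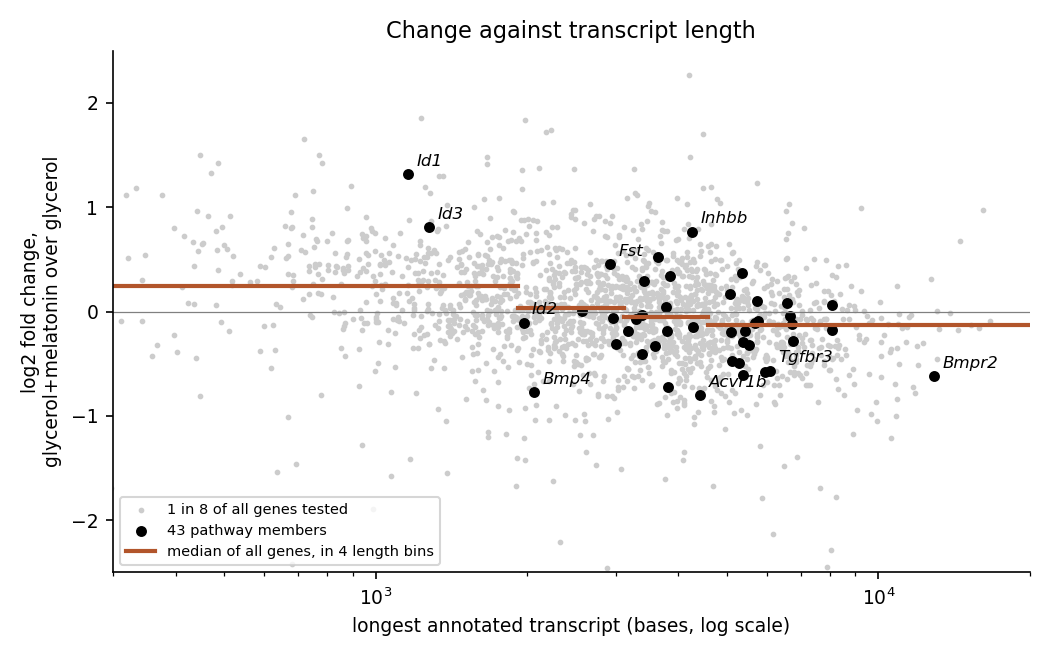
Log2 fold change, glycerol+melatonin over glycerol, against the length of the longest annotated transcript (bases, log scale). Grey points are 1 in 8 of all genes tested, brown bars the median of all genes in each of 4 length bins, and black points the 43 members. The brown medians step down across the bins at 0.25, 0.04, -0.05 and -0.13, and Id1 and Id3 lie above the bar of the shortest bin.

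Id1 and Id3 are well expressed in endothelial cells, and the markers of these cells were measured beside them. In a bulk muscle library, fewer cells of a type and less RNA per cell cannot be told apart. The 12 endothelial markers, all detected at 16.2 CPM or more, summed to 1194, 1213 and 1872 CPM with glycerol+melatonin, against 1359, 1164 and 1324 CPM with glycerol. Their groups overlapped in sum, and the median log2 fold change was 0.15. At unadjusted p under 0.05, 3 of 12 (25%) were higher, against 10.1% of all genes, and 0 lower, against 9.39%. The 3 with the highest CPM, Cdh5, Pecam1 and Tie1, had log2 fold changes of -0.17, 0.06 and 0.23. The 3 with unadjusted p under 0.05, named after their values were seen, were Egfl7 at 0.75 ± 0.22, Cldn5 at 0.69 ± 0.29 and Esam at 0.64 ± 0.21 on the log2 scale, beside 0.81 for Id3. Egfl7 and Esam, 2 of the 12 (16.7%), were higher in every glycerol+melatonin library, against 13.6% of all genes. DESeq2 called Egfl7 (adjusted p = 0.0484, beside 0.168 in edgeR). The longest transcripts of Egfl7, Cldn5 and Esam, of 1865, 1416 and 1865 bases, are in the shortest length bin, where the median of all genes was 0.25. Divided by each of the 12 markers in turn within a library, Id1 was higher in every glycerol+melatonin library than in any glycerol library for 12 of 12 markers. The log2 difference of these ratios, glycerol+melatonin minus glycerol, was between 0.56 (over Egfl7) and 1.60 (over Vwf). Divided likewise, Id3 was higher without overlap for 6 of 12 markers and overlapped for 6, with log2 differences between 0.04 (over Egfl7) and 1.08 (over Vwf). These ratios were computed after the values had been seen, and no test is given for them. The 12 ratios of a gene share its value, and the groups of Id1 and Id3 did not overlap before division. They are therefore not separate results, and the part of endothelial cells in the Id1 and Id3 differences was not tested.

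Across the 7 BMP targets among the members, 4 had fold changes above 0 and the median log2 fold change was 0.17. Of these targets, 2 (28.6%), Id1 and Id3, had unadjusted p under 0.05 and were higher, against 10.1% of all genes, and 0 were lower, against 9.39%. The remaining BMP targets include feedback genes of the pathway, and their groups overlapped. Smad6, an inhibitory SMAD, had 4.52, 4.34 and 6.89 CPM with glycerol+melatonin and 4.74, 6.4 and 5.27 CPM with glycerol (log2 fold change -0.06 ± 0.24). Bambi, a pseudoreceptor without a kinase that blocks signalling, had 5.53, 6.57 and 7.94 CPM with glycerol+melatonin and 6.45, 4.24 and 7.1 CPM with glycerol (log2 fold change 0.17 ± 0.25). Neither gene had a library set apart by group. Smad9, which encodes a BMP SMAD, was the least abundant member per kilobase, with 0.64, 0.461 and 0.723 CPM with glycerol+melatonin and 1.06, 0.691 and 1.03 CPM with glycerol (log2 fold change -0.61 ± 0.34, edgeR adjusted p = 0.352). Its highest glycerol+melatonin library lay just above its lowest glycerol library. Among 5 further BMP targets, 3 were measured, and Msx1, a homeobox gene, was the only one with unadjusted p under 0.05 (edgeR adjusted p = 0.254). Msx1 had 7.42, 7.99 and 8.19 CPM with glycerol+melatonin and 6.77, 5.62 and 5.41 CPM with glycerol, so that its groups did not overlap.

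The 4 TGF-beta targets among the members showed no shared difference: 1 fold change was above 0 and 3 below, 0 had unadjusted p under 0.05, and the median was -0.20. Tgfbi, an extracellular matrix protein named for its induction by TGF-beta, had 61.1, 70.8 and 58.6 CPM with glycerol+melatonin and 70.7, 74.8 and 90.6 CPM with glycerol (log2 fold change -0.31 ± 0.16, edgeR adjusted p = 0.321). Its groups overlapped by a hair, with 70.8 CPM in glycerol+melatonin replicate 2 and 70.7 CPM in glycerol replicate 1. Skil, a corepressor that is induced by TGF-beta and feeds back on SMADs, had 16.3, 2.09 and 2.34 CPM with glycerol+melatonin and 5.61, 4.26 and 12.6 CPM with glycerol. High and low Skil libraries occurred in both groups, and the log2 fold change was -0.12 ± 0.77. Tgfb1, which induces its own transcription, had 52.97, 47.6 and 77.1 CPM with glycerol+melatonin and 64.4, 54.5 and 58.3 CPM with glycerol. The log2 fold change of Tgfb1 was 0.005 ± 0.20, with a sign that turned under 5 of the settings that keep every library. Ltbp2, a microfibril protein, had 7.2, 7.68 and 12.5 CPM with glycerol+melatonin and 9.66, 8.43 and 15.1 CPM with glycerol (log2 fold change -0.28 ± 0.29), and the groups overlapped. Smad7, an inhibitory SMAD that both TGF-beta and BMP induce, had 6.03, 6.7 and 7.85 CPM with glycerol+melatonin and 9.19, 7.09 and 6.52 CPM with glycerol, again overlapping (log2 fold change -0.15 ± 0.20).

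Among 12 further TGF-beta targets, 3 (25%) had unadjusted p under 0.05 and were higher with glycerol+melatonin, against 10.1% of all genes, and 0 were lower. Fold changes were above 0 for 7 of the 12 and below 0 for 5, with a median log2 fold change of 0.10. Below 0 were Col1a1 at -0.39, Col1a2 at -0.39, Lox at -0.32, Fn1 at -0.28 and Snai1 at -0.05. Without overlap, 3 (25%) were higher, against 13.6% of all genes, and 1 (8.33%), Col1a2, was lower, against 12.5%. Ccn2, a matricellular growth factor, had 92.9, 141 and 109 CPM with glycerol+melatonin and 48.2, 90.7 and 70.2 CPM with glycerol (log2 fold change 0.71 ± 0.26, edgeR adjusted p = 0.198). Tagln, a smooth muscle actin-binding protein, stood at 0.69 ± 0.29 (log2 fold change; edgeR adjusted p = 0.247), and Tgif1, a SMAD corepressor, at 0.69 ± 0.26 (edgeR adjusted p = 0.214). Without glycerol+melatonin replicate 3 these were 0.25 for Tagln and 0.41 for Tgif1. Tagln shares 1241 exon bases with Gm48529 and 108 with Pcsk7, and Ccn2 shares 665 with Gm15270. These partners lie on the opposite strand and are in the count table. Whether counting used strand is not known, so their reads cannot be told apart from those of Tagln and Ccn2. With members and further genes counted together, 3 of 10 BMP targets (30%) and 3 of 16 TGF-beta targets (18.8%) were higher at unadjusted p under 0.05, against 10.1% of all genes, and 0 of either were lower, against 9.39%. The medians were 0.16 for the BMP targets and -0.02 for the TGF-beta targets. The 3 higher BMP targets were Id1, Id3 and Msx1. Both lists were set with earlier results of these data known, so these shares are a description only.

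By library, the BMP targets among the members averaged 0.002, 0.121 and 0.285 log2 units above their mean over the 6 libraries with glycerol+melatonin, against -0.115, -0.217 and -0.076 with glycerol. The TGF-beta targets among the members stood at 0.203, -0.494 and -0.174 with glycerol+melatonin, against 0.049, -0.138 and 0.553 with glycerol. Hence the groups did not overlap for the BMP targets and did for the TGF-beta targets. Without Id1 and Id3 the other 5 BMP targets stood at -0.062, -0.117 and 0.119 with glycerol+melatonin, against 0.118, -0.056 and -0.001 with glycerol, and overlapped. The 3 further BMP targets overlapped too, at 0.224, -0.117 and -0.161 with glycerol+melatonin, against 0.003, 0.249 and -0.198 with glycerol. No test was made of the difference between the lists. Leaving out 1 library at a time moved the BMP median between 0.04 and 0.29 and the TGF-beta median between -0.37 and 0.01. The lowest BMP median came without glycerol+melatonin replicate 3. Scaling by totals alone gave medians of 0.38 for the BMP targets and -0.071 for the TGF-beta targets, and the length correction gave 0.30 and -0.076.

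**Figure D4:**
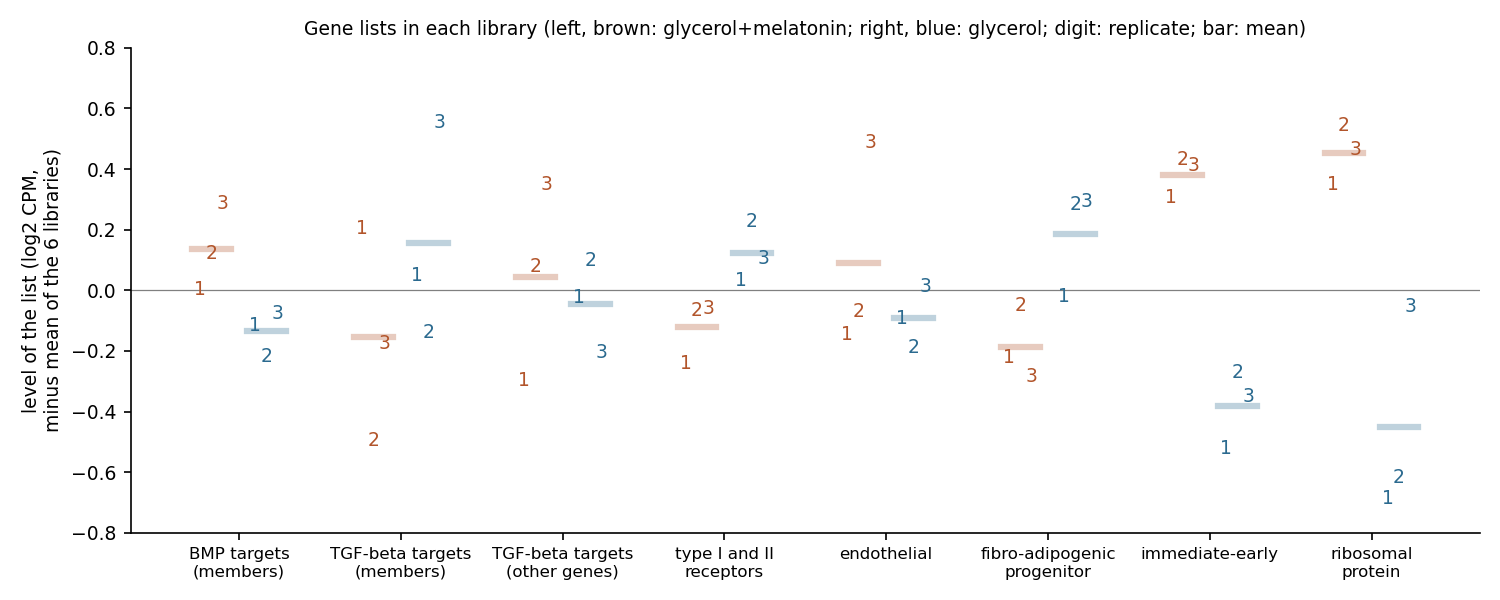
Level of gene lists in each library, as the mean over the list of log2 CPM minus each gene's mean over the 6 libraries. Brown digits on the left are the glycerol+melatonin replicates, blue digits on the right the glycerol replicates, and bars the group means. The groups are apart for BMP targets, type I and II receptors, fibro-adipogenic progenitor, immediate-early and ribosomal protein genes and overlap for both TGF-beta lists and endothelial genes.

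Among the 12 receptor and co-receptor genes, 4 (33.3%) had unadjusted p under 0.05 and were lower with glycerol+melatonin, against 9.39% of all genes, and 0 were higher. The same 4 (33.3%) were lower without overlap between the groups, against 12.5% of all genes. Acvr1b (ENSMUSG00000000532, GRCm38 chromosome 15, 101174067 to 101213684, plus strand), which encodes the type I receptor ALK4 for activins and myostatin, had 43.7, 32.98 and 34.9 CPM with glycerol+melatonin, against 68.6, 81.4 and 44.02 CPM with glycerol. The groups did not overlap, but glycerol+melatonin replicate 1 and glycerol replicate 3 were nearly equal. Its log2 fold change was -0.80 ± 0.24 (edgeR adjusted p = 0.167, DESeq2 adjusted p = 0.0443, with a range of 0.0443 to 0.469 over the alternative settings). Bmpr1a (ENSMUSG00000021796, GRCm38 chromosome 14, 34410734 to 34503341, minus strand), the type I BMP receptor ALK3, had 35.2, 37.6 and 30.9 CPM with glycerol+melatonin, against 60.6, 54.6 and 40.1 CPM with glycerol (log2 fold change -0.58 ± 0.18, edgeR adjusted p = 0.179). Bmpr2 (ENSMUSG00000067336, GRCm38 chromosome 1, 59763400 to 59879014, plus strand), the type II BMP receptor, had 55.4, 47.3 and 33.8 CPM with glycerol+melatonin, against 77.1, 72.3 and 60.2 CPM with glycerol (log2 fold change -0.62 ± 0.21, edgeR adjusted p = 0.185). For both BMP receptors every glycerol+melatonin library was below every glycerol library. Tgfbr3 (ENSMUSG00000029287, GRCm38 chromosome 5, 107106570 to 107289629, minus strand), the co-receptor betaglycan that presents TGF-beta and inhibin, had 27.7, 32.4 and 28.5 CPM with glycerol+melatonin, against 45.8, 45.6 and 39.9 CPM with glycerol. It had the tightest groups of the 4, and its log2 fold change was -0.57 ± 0.14 (edgeR adjusted p = 0.141, DESeq2 adjusted p = 0.0371, with a range of 0.0371 to 0.438 over the alternative settings). Over the 15 alternatives the weakest log2 fold changes were -0.57 for Acvr1b, -0.35 for Bmpr1a, -0.41 for Bmpr2 and -0.34 for Tgfbr3. Each came from a setting that keeps every library. With libraries scaled by totals alone, not all of these 4 genes kept unadjusted p under 0.05. Bmpr1a, Bmpr2 and Tgfbr3 are in the longest of the 4 length bins, where the median of all genes was -0.13.

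The promoters of Acvr1b, Bmpr1a and Bmpr2 are printed because these kinase receptors were lower together and each window held 1 GGCGCC. The windows, cut around RefSeq's start in the same way, are chr15:101173822-101174121 (plus strand), chr14:34502497-34502796 (minus strand) and chr1:59764029-59764328 (plus strand). Capitals mark GGCGCC.
Acvr1b: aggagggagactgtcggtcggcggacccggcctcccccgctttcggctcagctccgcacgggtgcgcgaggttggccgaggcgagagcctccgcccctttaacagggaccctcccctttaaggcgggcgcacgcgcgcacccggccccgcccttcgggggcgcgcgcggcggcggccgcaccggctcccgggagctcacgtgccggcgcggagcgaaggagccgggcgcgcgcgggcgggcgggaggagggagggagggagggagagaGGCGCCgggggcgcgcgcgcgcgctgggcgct
Bmpr1a: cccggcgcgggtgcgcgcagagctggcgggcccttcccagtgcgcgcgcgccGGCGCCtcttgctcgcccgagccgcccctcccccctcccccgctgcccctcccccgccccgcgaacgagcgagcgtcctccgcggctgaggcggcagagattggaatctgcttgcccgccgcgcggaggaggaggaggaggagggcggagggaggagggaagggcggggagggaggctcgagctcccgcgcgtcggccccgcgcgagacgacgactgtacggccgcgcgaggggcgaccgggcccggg
Bmpr2: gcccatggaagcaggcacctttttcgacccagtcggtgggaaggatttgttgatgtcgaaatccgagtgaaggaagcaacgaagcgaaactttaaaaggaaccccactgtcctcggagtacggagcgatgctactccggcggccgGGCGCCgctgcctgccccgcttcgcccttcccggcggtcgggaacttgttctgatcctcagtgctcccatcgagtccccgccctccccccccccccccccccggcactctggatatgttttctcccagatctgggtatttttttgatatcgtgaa
GGCGCC began at base 269 in the Acvr1b window, base 53 in the Bmpr1a window and base 146 in the Bmpr2 window. Neither CAGAC nor GTCTG was found in these windows. GGCGCC was also in the Id2 window and in a window of Tgfbr1, a kinase receptor whose groups overlapped (log2 fold change -0.09). Windows of Id4, Ltbp4, Smad5, Smad9, Smurf2 and Tgfbi, whose groups overlapped, held it too, as did that of Ski, whose groups did not. The printed windows were picked for holding the motif, so its presence in them is not a result. Tgfbr3 was not matched to a promoter.

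None of the other receptors had unadjusted p under 0.05. Of the 9 type I and type II kinase receptors, 8 had fold changes below 0 with a median of -0.17, but Tgfbr1, Tgfbr2, Acvr1, Acvr2a and Acvr2b turned above 0 when libraries were scaled by their totals alone. Tgfbr1, the type I TGF-beta receptor, had 7.81, 27.9 and 19.98 CPM with glycerol+melatonin and 7.76, 25.8 and 25.6 CPM with glycerol, so that 1 low library stood in each group (log2 fold change -0.09 ± 0.52). Tgfbr2, the type II TGF-beta receptor, averaged 76.9 ± 12.8 CPM with glycerol+melatonin and 86.7 ± 6.02 CPM with glycerol (log2 fold change -0.17 ± 0.17). The BMP and activin receptor genes Acvr1 and Acvr2a averaged 14.5 ± 2.19 and 23.5 ± 2.79 CPM with glycerol+melatonin, against 15.3 ± 1.82 and 25.4 ± 2.15 CPM with glycerol. The log2 fold change was -0.08 ± 0.18 for Acvr1 and -0.11 ± 0.16 for Acvr2a. Acvr2b, a type II receptor that binds myostatin, was scarce at 1.07 ± 0.593 CPM with glycerol+melatonin and 1.22 ± 0.368 CPM with glycerol (log2 fold change -0.19 ± 0.47). Eng and Acvrl1, the co-receptor endoglin and the type I receptor ALK1 of endothelial BMP signalling, had the only other positive fold changes beside Bambi. Eng had 142, 149 and 253 CPM with glycerol+melatonin and 149.9, 143 and 151 CPM with glycerol, where 1 library, glycerol+melatonin replicate 3, stood above the rest and without it the log2 fold change was -0.018 in place of 0.30 ± 0.23. Acvrl1 had 21.3, 48.98 and 59.2 CPM with glycerol+melatonin and 19.7, 20.5 and 49.7 CPM with glycerol. High and low Acvrl1 libraries occurred in both groups, and its log2 fold change was 0.53 ± 0.45, or between 0.24 and 1.10 with 1 library left out. In glycerol+melatonin replicate 3, where Eng was highest, the endothelial markers also had their highest sum (1872 CPM); the part of these cells in the result was not tested. Per kilobase, Eng was the most abundant receptor gene, at 53.0 CPM per kilobase with glycerol+melatonin and 43.2 with glycerol, and Acvr2b the least, at 0.337 and 0.383.

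**Figure D5:**
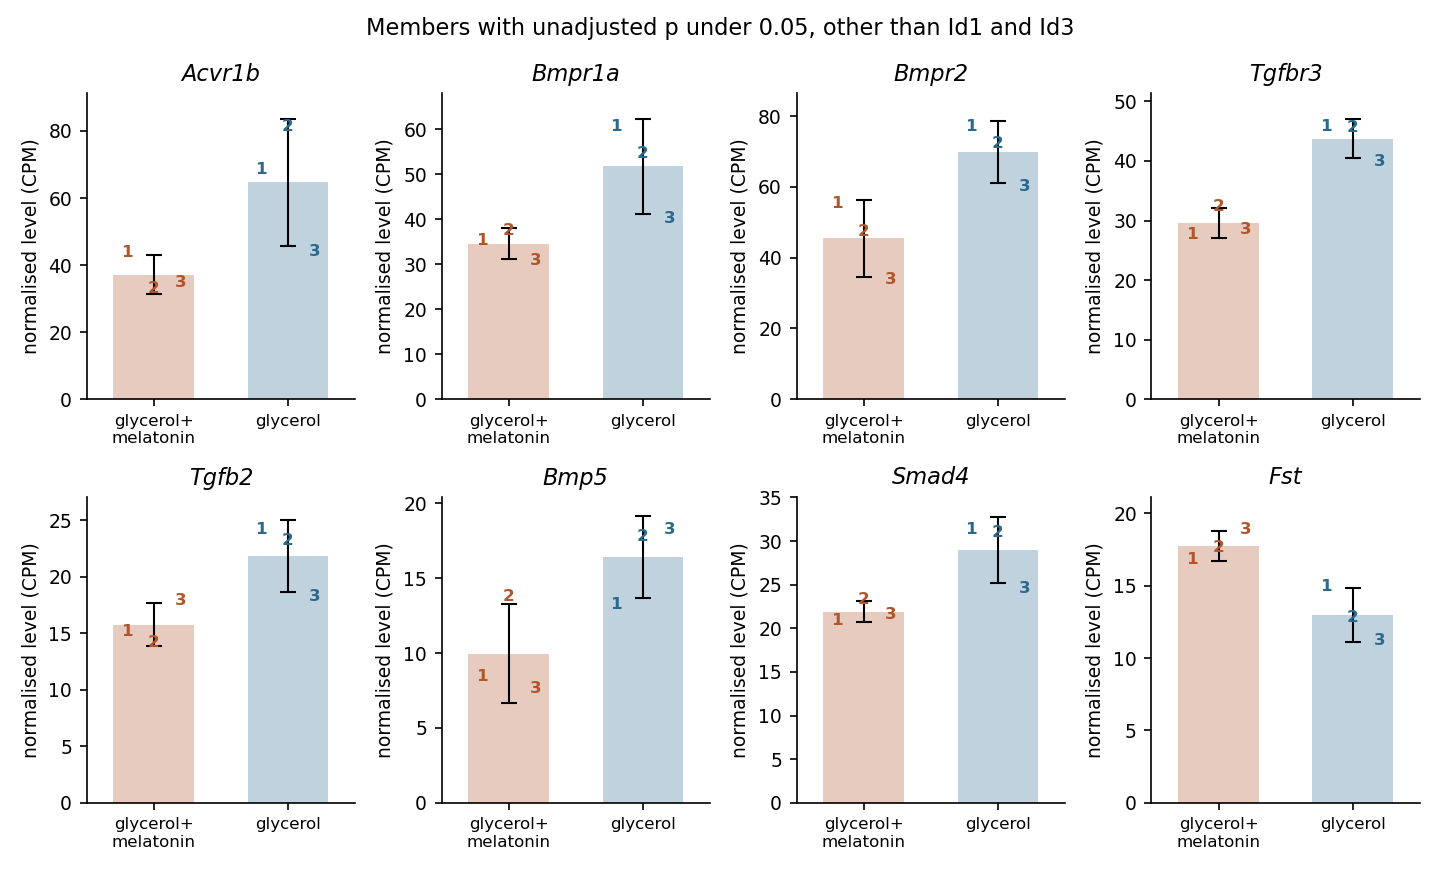
Normalised level (CPM) of the 8 members other than Id1 and Id3 with unadjusted p under 0.05, in glycerol+melatonin muscles, left, and glycerol muscles, right. Bars are means, error bars the SD of 3 libraries, and digits mark each replicate. Fst is higher and the others are lower with glycerol+melatonin, and the groups overlap in Bmp5 alone.

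Of the 8 ligand-role genes, 2 (25%) were lower at unadjusted p under 0.05, against 9.39% of all genes, and 0 were higher, against 10.1%. Tgfb2, a TGF-beta isoform that needs betaglycan for efficient receptor binding, had 15.2, 14.2 and 17.9 CPM with glycerol+melatonin, against 24.1, 23.2 and 18.2 CPM with glycerol. The groups were separated only narrowly, by 17.9 CPM in glycerol+melatonin replicate 3 and 18.2 CPM in glycerol replicate 3, and the log2 fold change was -0.47 ± 0.18 (edgeR adjusted p = 0.208). Bmp5 had 8.43, 13.8 and 7.66 CPM with glycerol+melatonin and 13.2, 17.8 and 18.2 CPM with glycerol (log2 fold change -0.72 ± 0.25, edgeR adjusted p = 0.195). The groups of Bmp5 overlapped, and 1878 of its exon bases are shared with the antisense gene Gm26903, which had 97, 23 and 10 counts with glycerol+melatonin against 0, 2 and 12 with glycerol. The sources used here do not say whether counting used strand, so reads of these partners cannot be told apart. Bmp4, a ligand of Bmpr1a, had 7.24, 6.09 and 1.98 CPM with glycerol+melatonin, against 8.3, 8.98 and 8.84 CPM with glycerol. The groups did not overlap and 1 library, glycerol+melatonin replicate 3, was far below the rest; the log2 fold change was -0.77 ± 0.40 (edgeR adjusted p = 0.325) and -0.38 without that library. Bmp6, a ligand known for iron control, averaged 11.8 ± 2.51 CPM with glycerol+melatonin and 14.9 ± 3.24 CPM with glycerol (log2 fold change -0.33 ± 0.22).

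None of the remaining ligand-role genes had unadjusted p under 0.05. Tgfb3 averaged 58.5 ± 1.96 CPM with glycerol+melatonin and 59.7 ± 4.45 CPM with glycerol, one of the closest matches among the members (log2 fold change -0.03 ± 0.14). Per kilobase, Tgfb1 and Tgfb3 were both far above Tgfb2: 23.0, 17.3 and 3.08 CPM per kilobase with glycerol+melatonin, against 23.0, 17.7 and 4.27 with glycerol. Inhbb, the beta B subunit of activin B and inhibin B, had 2.83, 2.45 and 10.5 CPM with glycerol+melatonin and 2.2, 3.75 and 3.31 CPM with glycerol. Only glycerol+melatonin replicate 3 was high, and without it the log2 fold change was -0.22 in place of 0.77 ± 0.54. Bmp1, which despite its name is a metalloprotease that cleaves procollagen and BMP antagonists, averaged 111 ± 14.6 CPM with glycerol+melatonin and 86.3 ± 10.2 CPM with glycerol (log2 fold change 0.37 ± 0.17, edgeR adjusted p = 0.271).

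Among the 6 binding proteins, Fst (ENSMUSG00000021765, GRCm38 chromosome 13, 114452290 to 114458951, minus strand) alone had unadjusted p under 0.05. Follistatin, its product, binds activins and myostatin and keeps them from their receptors. Fst had 16.8, 17.6 and 18.9 CPM with glycerol+melatonin, against 14.9, 12.8 and 11.2 CPM with glycerol. All 3 glycerol+melatonin libraries were higher than all 3 glycerol libraries, and the log2 fold change was 0.46 ± 0.17 (edgeR adjusted p = 0.201). Fstl1, a follistatin-like protein secreted by stromal cells and muscle, averaged 217 ± 69.3 CPM with glycerol+melatonin and 247 ± 36.8 CPM with glycerol (log2 fold change -0.19 ± 0.25). The latent TGF-beta binding proteins, which tether TGF-beta to the matrix, included Ltbp4 at 284 ± 56.7 CPM with glycerol+melatonin and 348 ± 52.5 CPM with glycerol (log2 fold change -0.30 ± 0.20). Ltbp3 averaged 106 ± 14.3 CPM with glycerol+melatonin and 98.6 ± 4.65 CPM with glycerol (log2 fold change 0.10 ± 0.16). Ltbp1 averaged 19.7 ± 2.41 CPM with glycerol+melatonin and 20.4 ± 1.5 CPM with glycerol (log2 fold change -0.04 ± 0.16). None of these latent binding proteins had groups that were apart.

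Of the 8 SMAD genes, Smad4, the common partner of both branches, had unadjusted p under 0.05. It had 20.9, 23.3 and 21.6 CPM with glycerol+melatonin, against 31.3, 30.97 and 24.6 CPM with glycerol (log2 fold change -0.40 ± 0.16, edgeR adjusted p = 0.22), and the groups did not overlap. The TGF-beta SMADs differed little in their means. Smad2 averaged 8.26 ± 2.16 CPM with glycerol+melatonin and 7.92 ± 0.581 CPM with glycerol (log2 fold change 0.06 ± 0.22), and Smad3 averaged 89.9 ± 9.47 CPM with glycerol+melatonin and 103 ± 15.4 CPM with glycerol (log2 fold change -0.20 ± 0.17). The BMP SMADs were close as well. Smad1 averaged 30.2 ± 5.0 CPM with glycerol+melatonin and 29.4 ± 1.62 CPM with glycerol (log2 fold change 0.04 ± 0.17), and Smad5 averaged 40.1 ± 3.19 CPM with glycerol+melatonin and 37.97 ± 1.49 CPM with glycerol (log2 fold change 0.08 ± 0.14). Per kilobase, Smad3 was the most abundant SMAD gene at 17.7 CPM per kilobase with glycerol+melatonin and 20.3 with glycerol, and Smad9 the least at 0.113 and 0.173.

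The 4 SMAD inhibitors all had fold changes below 0 (Smurf1 above 0 when libraries were scaled by totals alone, Skil after the length correction), with 0 at unadjusted p under 0.05. Ski, a corepressor that binds SMADs on DNA, had 72.1, 81.7 and 82.6 CPM with glycerol+melatonin, against 114, 96.1 and 84.5 CPM with glycerol (log2 fold change -0.32 ± 0.16, edgeR adjusted p = 0.319). Its groups did not overlap, but only 82.6 and 84.5 CPM parted them. The ubiquitin ligase genes Smurf1 and Smurf2, which mark SMADs and receptors for degradation, varied more within groups than between them. Smurf1 had 26.7, 12.4 and 29.7 CPM with glycerol+melatonin and 26.1, 27.7 and 24.6 CPM with glycerol (log2 fold change -0.19 ± 0.29). Smurf2 had 14.1, 29.4 and 11.4 CPM with glycerol+melatonin and 33.4, 33.7 and 10.6 CPM with glycerol (log2 fold change -0.50 ± 0.48). Such spread was found in a minority of the members: the highest library of a group was over 2 times the lowest in at least 1 group for 8 of 43 (18.6%), against 25.4% of all genes.

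Of 48 further pathway genes, 44 were measured; 3 (6.82%) were higher with glycerol+melatonin at unadjusted p under 0.05 and 12 (27.3%) were lower, beside 10.1% and 9.39% of all genes, with a median log2 fold change of -0.29. Ppm1a was the only one past the adjusted threshold. It encodes a phosphatase reported to dephosphorylate SMAD2 and SMAD3 and BMP SMADs, and it fell to 46.5, 34.7 and 28.8 CPM with glycerol+melatonin, against 105, 134 and 116 CPM with glycerol. The groups were far apart, and the log2 fold change was -1.69 ± 0.21 (edgeR adjusted p = 0.0419). The adjusted p was 0.123 with the replicate number as a block and 0.0877 after the length correction. The call was also lost in 5 of 6 fits that left out a library, all but the one without glycerol+melatonin replicate 1, with adjusted p over the 6 between 0.0236 and 0.133, while the log2 fold change stayed between -1.90 and -1.54. Zfyve9, the SMAD anchor SARA, had 19.6, 16.4 and 19.98 CPM with glycerol+melatonin, against 41.4, 51.7 and 35.1 CPM with glycerol (log2 fold change -1.20 ± 0.18, edgeR adjusted p = 0.0788). It shares 706 exon bases with an antisense gene. Usp15 and Wwp1, which encode a deubiquitinase and a ubiquitin ligase that act on receptors and SMADs, had log2 fold changes of -0.69 ± 0.19 and -0.73 ± 0.26. The edgeR adjusted p was 0.156 for Usp15 and 0.2 for Wwp1, and the groups of Wwp1 overlapped.

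Outside the cell, the matrix genes Fbn1 and Dcn, for the fibrillin that anchors latent TGF-beta and for decorin that binds TGF-beta, were both lower in all 3 glycerol+melatonin libraries. Fbn1 was at -0.79 ± 0.15 (log2 fold change, edgeR adjusted p = 0.111) and Dcn at -0.81 ± 0.21 (edgeR adjusted p = 0.145). The log2 fold change was -0.63 ± 0.25 for Furin, a protease that matures the ligands (edgeR adjusted p = 0.223). For Chrd, the BMP antagonist chordin, it was 0.59 ± 0.20 (edgeR adjusted p = 0.187). Among further ligands Gdf5 had a log2 fold change of 0.77 ± 0.28 and Gdf10 one of -0.82 ± 0.30 (edgeR adjusted p = 0.202 and 0.206). The BMP co-receptor genes Rgmb and Rgma had log2 fold changes of -0.69 ± 0.20 and -0.47 ± 0.21 (edgeR adjusted p = 0.164 and 0.255). The groups of Rgma overlapped. Rgma shares 258 exon bases, and Chrd 239, with opposite-strand genes in the count table, and whether counting used strand is not known. With 1 library left out, the log2 fold change was -0.38 for Furin (without glycerol+melatonin replicate 2), -0.54 for Gdf10 (without glycerol+melatonin replicate 3) and -0.27 for Rgma (without glycerol replicate 1). Fbn1 and Dcn also mark fibro-adipogenic progenitors, which lay down matrix and can turn into fat cells in injured muscle. At unadjusted p under 0.05, 6 of the 12 progenitor markers (50%) were lower, against 9.39% of all genes, and 0 higher, against 10.1%. The 12 markers, led by Gsn, Dcn and Col15a1, had a median log2 fold change of -0.61. They summed to 1704, 1800 and 1554 CPM with glycerol+melatonin, against 1925, 2670 and 2503 CPM with glycerol, and each was detected in both groups. The type I and II receptors of the members stood at -0.240, -0.066 and -0.059 log2 units with glycerol+melatonin, against 0.032, 0.228 and 0.105 with glycerol. The part of these cells in the receptor values was not tested. Tenocyte markers likewise summed to 266.6, 372.9 and 554.5 CPM with glycerol+melatonin, against 613.5, 689.2 and 575.1 CPM with glycerol. Of these markers 3 of 8 (37.5%) were lower at unadjusted p under 0.05, against 9.39% of all genes, and 0 higher. Macrophage, pericyte and smooth muscle, and muscle stem cell markers had median log2 fold changes of -0.14, -0.08 and 0.12, and their summed levels overlapped between the groups.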

How the data were processed

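RNA of whole muscle from 6 mice was sequenced, 3 with glycerol+melatonin and 3 with glycerol, which the series' text calls biological replicates. Read counts by gene, not normalised, were deposited by the authors in 1 table. The submitters' processing notes name DESeq2 1.12.4, StringTie 1.3.3b, bedtools 2.26.0, HISAT2 2.0, Trimmomatic 0.36, FastQC 0.11.2 and the build mm10. The counting tool, annotation, strand setting and treatment of multi-mapped reads: not given in the sources used here. No gene had a summed count under 28, so low genes had been removed before deposit.

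Columns were matched to samples by treatment code and replicate number. Symbols, positions (GRCm38, the assembly of mm10) and the longest transcript came from GENCODE M21 for 16260 genes. Among the members, 16 share exon bases with another annotated gene, 5 of them with a gene in the table. Counts were tested with edgeR 4.0.16 (quasi-likelihood, TMM factors, filterByExpr; R 4.3.3) on all 6 libraries with no covariate, and p-values were adjusted by Benjamini-Hochberg over 16259 genes. CPM are scaled by the TMM factors, and list levels used a prior count of 2. SE is the size of a log2 fold change over the square root of its F statistic. Total counts were 39310361 to 48879045. Counting error weighs on scarce members such as Smad9, with 25 to 43 counts by library, and Acvr2b, with 24 to 71. For abundant genes precision depends mainly on how far the libraries of a group differ. Differences between mice and between library preparations cannot be told apart in that spread. No library repeated another: chi-square over degrees of freedom was 66.8 to 182.6 within groups.

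The alternatives were RLE and upper quartile factors, scaling by totals alone, no filter, a filter of 1 CPM in 3 libraries, DESeq2 1.42.0, limma-voom (limma 3.58.1), the replicate number as a block, a length correction (spline of log length with 4 degrees of freedom as an offset) and leaving out each library. The fit was tested on simulated counts. Members, gene lists and targets were chosen with earlier results of these data known. Every member is named; members with unadjusted p under 0.05, with groups that do not overlap, or listed as targets are given by library (22 members), and some others whose libraries stood apart as well. Of further genes, those past the threshold and up to 4 per list with the smallest p under 0.05 are named. The 5 further TGF-beta targets with fold changes below 0 are named as well.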

Additional observations from a re-analysis of the deposited data

How the results depend on the processing

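Over 15 alternatives, 21 of 43 members kept the direction of their log2 fold change in each and 22 turned in at least 1; Id1, Id3, Fst, Acvr1b, Bmpr1a, Bmpr2, Tgfbr3, Tgfb2, Bmp5 and Smad4 were among the 21. The number of genes past the threshold, 12, was 753 with DESeq2, 7 with the length correction, 0 with the replicate block and between 6 and 27 when a library was left out. The numbers of the labels did not pair the samples: deviations of same-numbered libraries had correlations of -0.01, -0.011 and -0.049, and each library correlated best with a library of another number. With the replicate block edgeR still gave 0 members past the threshold. DESeq2 called 4 members, and leaving out a library gave 0 to 1. Members higher at unadjusted p under 0.05 numbered 2 to 4 with a library left out and members lower 3 to 7; the lower ones numbered 2 with library totals alone and 4 with the length correction. The median log2 fold change of BMP targets was 0.38 with totals alone, 0.30 with the length correction and 0.035 to 0.29 with a library left out; that of TGF-beta targets was -0.37 to 0.006 with a library left out. The filter of 1 CPM removed Smad9, which has no value there. The cause of these shifts was not tested.

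Log2 fold changes that turned were as follows. With totals alone they were Tgfb3 0.18, Tgfbr1 0.14, Tgfbr2 0.051, Acvr1 0.16, Acvr2a 0.098, Acvr2b 0.011, Smad3 0.012, Smad6 0.17, Smad7 0.086, Smurf1 0.019, Ltbp1 0.18, Fstl1 0.014 and Id2 0.11. With the length correction they were Tgfb1 -0.015, Tgfb3 0.034, Tgfbr1 0.044, Tgfbr2 0.004, Acvr2a 0.040, Skil 0.033 and Ltbp1 0.13. Tgfb1 was at -0.009 with RLE factors and with DESeq2, -0.023 with limma-voom and -0.024 with the replicate block, and Tgfb3 at 0.005 with upper quartile factors. With a library left out the ranges were Tgfb1 -0.23 to 0.14, Tgfb3 -0.064 to 0.039, Inhbb -0.22 to 1.11, Tgfbr1 -0.51 to 0.28, Acvr1 -0.17 to 0.039, Acvr2b -0.62 to 0.19, Bambi -0.021 to 0.33, Eng -0.018 to 0.44, Smad1 -0.059 to 0.17, Smad2 -0.16 to 0.22, Smad6 -0.30 to 0.069, Smad7 -0.25 to 0.012, Smurf1 -0.42 to 0.11, Skil -1.76 to 0.49, Ltbp1 -0.14 to 0.022, Ltbp2 -0.57 to 0.013, Ltbp3 -0.008 to 0.18 and Fstl1 -0.46 to 0.009.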
